A study of Mus musculus with 24 samples.

Results

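Tet2-KO mouse embryonic stem (mES) cells were compared with WT mES cells by MeDIP-seq, in which an antibody against 5-methylcytosine (5mC) enriches fragments of methylated DNA. The unit of measurement was a window of 100 bp, and the windows described here were all rows of the deposited comparison of both genotypes except those on chromosomes X and Y. This left 11591 of the 14279 rows of that table, after 184 rows of chromosome X and 2504 of chromosome Y were set aside, and the whole series listed 14618 distinct windows. Both groups consisted of 3 immunoprecipitated libraries, and both had received the control siRNA siNC. The KO cells lacked Tet2 (Tet2-/-), the WT cells carried no engineered allele, and both lines had been obtained from another laboratory and were grown in serum with LIF and the inhibitors CHIR99021 and PD0325901. The study describes its genome-wide data as made from biological replicates, but the labels name no separate clones or cultures, so p-values measure only the spread between these libraries, part of which may be technical. RNA was not measured in these samples, so no expression marker of mES cells could be checked.

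TET2 is a dioxygenase that oxidizes 5mC, a step on the way to unmethylated cytosine, and it is one of the TET enzymes that mES cells express. In mammalian DNA 5mC lies mostly at CpG dinucleotides, where DNMT1 copies it after replication and DNMT3A and DNMT3B place it anew. At imprinted loci one parental allele is methylated in the germ line and this mark is kept through early development, in part by the zinc-finger protein ZFP57, which binds the methylated hexamer TGCCGC. Dense 5mC also covers endogenous retroviruses such as IAP elements, and young LINE-1 copies.

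Library totals lay between 8.92 and 15.4 M reads, with replicate 1 of Tet2 KO the shallowest. Replicates 2 and 3 differed by less than sampling noise in both genotypes (chi-square per degree of freedom 0.964 in Tet2 KO and 0.957 in WT, compared with 1.44 and 1.39 for replicates 1 and 2). They were therefore averaged and counted as 1 sample, so each mean ± SD below has n = 2. Averaging removes the difference between replicates 2 and 3, so such an SD can be smaller than the spread of the 3 libraries. No input library of this experiment was analysed here, so that 5mC and the number of DNA copies cannot be told apart. Neighbouring windows share fragments and are not independent.

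Of the 11591 windows, 2375 (20.5%) were higher and 9216 (79.5%) lower in Tet2 KO by mean RPKM (reads scaled to window length and library size). The windows had been listed by the authors because they differed between these same libraries, and the edgeR quasi-likelihood refit with Benjamini-Hochberg adjustment called 2375 higher and 9216 lower, which is all of them and no independent support. The listed windows were 0.00962% (higher) and 0.0384% (lower) of all reference windows of the 19 autosomes. At no window did a KO library overlap a WT library, in a list chosen on these libraries. These counts use library totals. TMM factors computed on the listed windows, which centre the list on itself, shifted KO over WT by 1.91 on the log2 scale and split the calls into 3466 higher and 3778 lower windows. The scaling to totals is used below, and with TMM factors 2301 of the 9216 lower windows and 0 of the 2375 higher windows took the other sign.

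By the sorting into directions, higher windows had the lower signal in WT and lower windows in Tet2 KO (plot of KO against WT signal), and both directions were near mirror images. Higher windows had medians of 5.20, 5.27 and 5.21 RPKM in the 3 WT libraries and of 28.0, 28.4 and 28.9 RPKM in the 3 KO libraries. Lower windows had WT medians of 24.3, 22.6 and 22.8 RPKM and KO medians of 3.36, 3.55 and 3.53 RPKM. The median log2 fold change was 2.27 for higher windows, with an interquartile range from 1.25 to 3.56, and -2.60 for lower windows, from -3.61 to -1.90. At 687 higher windows (28.9%) every WT library, and at 2884 lower windows (31.3%) every KO library, held no more than 3 reads, which was taken as the floor of detection. A separate set of 167 higher windows had very strong signal and small differences. The median of these was 4184 RPKM in WT and 5018 RPKM in Tet2 KO, log2 fold changes were under 0.5, and they had a median GC content of 36% and a median of 12 reference copies.

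**Figure D1:**
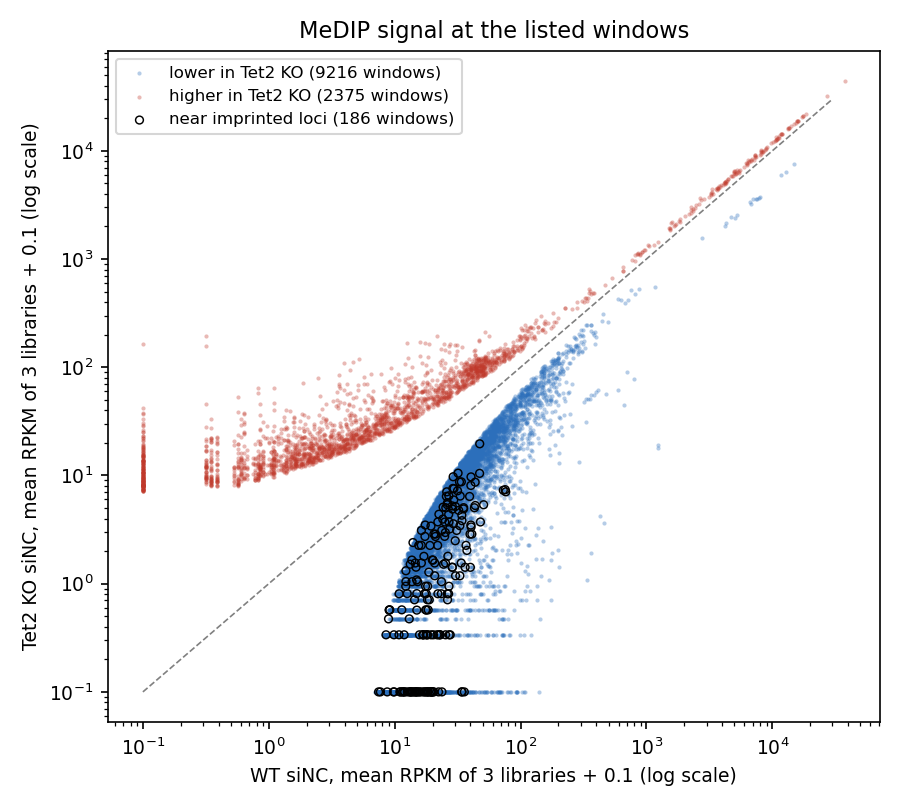
Mean RPKM plus 0.1 in WT (x axis) and Tet2 KO (y axis) at each of the 11591 windows, on log scales, with the dashed line at equal signal. The 2375 higher windows lie above the line and the 9216 lower windows below it, and the 186 windows near imprinted loci (black circles) reach the lower edge, where KO libraries held 0 reads.

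At Tet2 itself (chromosome 3, 133463679 to 133545139, minus strand), the list held 5 windows, all in an exon between 133487401 and 133487900 and with 1 reference copy. The KO libraries held 0, 0 and 0 reads over these windows and the WT libraries 62, 83 and 78 reads. The signal was 11.0 ± 0.402 RPKM in WT (SD, n = 2) and at least 4.39-fold lower in Tet2 KO, a bound set by the floor of 3 reads per window and library. Without input, these reads cannot tell a missing exon from an unmethylated one. The windows were also listed for differing between these libraries, so they are no independent check of the genotype.

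Windows around imprinted genes were lower in Tet2 KO. In the list of 50 autosomal imprinted protein-coding genes, 20 (40%) held a lower window within the gene or 1 kb upstream and 0 held a higher one, compared with 3.18% and 1.33% of all 20780 autosomal protein-coding genes. Genes that overlap or share a start region share windows, so a locus can count more than once in these shares. Of the 6 regions near a transcription start with the largest decrease, which were single-copy regions of at least 3 windows, 5 lay at Zrsr1, Nap1l5, Grb10 (2 regions) and Peg3. The imprinted loci were then grouped by the parental allele that carries the germline mark, a grouping made after the values were seen. Within 40 kb of these genes, 15 of 17 maternally methylated loci and 1 of 4 paternally methylated loci held lower windows, 186 in all, and none of the 21 held a higher window. By the same distance 8.96% of all protein-coding genes had a lower window and 3.97% a higher window. At least 6 lower windows were present at 12 of the 21 loci and at 2.49% of all genes.

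The sequences of 6 windows show what the antibody saw at such loci (GRCm38, plus strand, CpG dinucleotides in capitals). For Peg10 and Gnas the single-copy window with the most reads in a region is given, where it touched no annotated UTR. For the others it is the deepest single-copy window that holds the ZFP57 hexamer, written tgcCGc or, on the other strand, gCGgca.
Peg10 chr6:4747701-4747800: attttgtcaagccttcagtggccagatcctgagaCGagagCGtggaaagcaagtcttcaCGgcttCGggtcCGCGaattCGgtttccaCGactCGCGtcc
Gnas chr2:174298601-174298700: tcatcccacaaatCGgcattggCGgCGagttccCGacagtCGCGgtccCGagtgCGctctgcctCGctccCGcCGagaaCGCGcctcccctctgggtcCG
Peg3 chr7:6730101-6730200: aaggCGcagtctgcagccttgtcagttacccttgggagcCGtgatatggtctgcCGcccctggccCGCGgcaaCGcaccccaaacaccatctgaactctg
Nap1l5 chr6:58906801-58906900: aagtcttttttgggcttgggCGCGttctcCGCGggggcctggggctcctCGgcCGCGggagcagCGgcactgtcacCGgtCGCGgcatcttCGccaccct
Nnat chr2:157560301-157560400: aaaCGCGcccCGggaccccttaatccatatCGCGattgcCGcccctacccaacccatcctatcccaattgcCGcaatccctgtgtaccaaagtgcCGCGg
Rasgrf1 chr9:89879801-89879900: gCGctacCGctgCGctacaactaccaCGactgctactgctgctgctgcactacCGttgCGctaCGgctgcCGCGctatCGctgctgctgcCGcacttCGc
The Peg10 window held 47, 44 and 70 reads in WT and 1, 2 and 2 in Tet2 KO, and the Gnas window with 14 CpG sites held 50, 69 and 71 reads in WT and 10, 19 and 9 in Tet2 KO. At the Peg3 window WT libraries held 37, 32 and 38 reads and KO libraries 0, 1 and 0. At the Nap1l5 window they held 18, 31 and 31 reads and 0, 0 and 0. At the Nnat window, with 3 matches to the hexamer, they held 42, 54 and 64 reads and 3, 3 and 4. At the Rasgrf1 window they held 40, 44 and 51 reads and 2, 1 and 2. No KO library reached the lowest WT library at any of these windows.

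The hexamer TGCCGC, searched on both strands and counted only where it lay wholly inside a window, was present in 42 of the 186 windows near imprinted loci (22.6%). These lay at 11 of the 16 loci with a listed window. It was present in 4.35% of all lower windows, 3.39% of higher windows and 0.613% of all autosomal windows. Among windows with at least 5 CpG sites the shares were 31.7%, 4.48%, 4.94% and 7.38%, in that order. A match is a description of the sequence and not evidence of binding.

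The imprinted loci differed in how much signal remained (plot of imprinted loci). At Peg10 (chromosome 6, 4747306 to 4760517, plus strand), a gene derived from a retrotransposon and needed for the placenta, 26 windows from 4746801 to 4749400 covered the start it shares with Sgce. The 3 WT libraries gave 20.5, 20.1 and 20.9 RPKM and the 3 KO libraries 0.431, 0.464 and 0.788 RPKM. All KO counts were at the floor, so the mean signal was at least 8.07-fold lower. At Peg3 (chromosome 7, 6703892 to 6730431, minus strand), which encodes a zinc-finger protein and shares its start region with Usp29, 17 windows from 6729401 to 6731100 gave 22.8, 20.1 and 22.6 RPKM in WT and 0.395, 0.626 and 0.291 RPKM in Tet2 KO. In 16 of these 17 windows every KO library was at the floor.

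Grb10 (chromosome 11, 11930508 to 12038683, minus strand) encodes an adaptor that restrains growth-factor signalling. Its 19 windows from 12025401 to 12028200 lay within 1 kb of a start and gave 17.8, 15.4 and 20 RPKM in WT and 0.531, 0.747 and 0.669 RPKM in Tet2 KO. Zrsr1 (chromosome 11, 22972005 to 22976496, plus strand) lies within an intron of Commd1, and its 15 windows gave 14, 14.9 and 12.5 RPKM in WT and 0, 0.142 and 0.471 RPKM in Tet2 KO. Nap1l5, inside Herc3 on chromosome 6, had 10 windows from 58906401 to 58907400 with 13.4, 16.8 and 17.1 RPKM in WT and 0, 0 and 0.424 RPKM in Tet2 KO, at least 6.20-fold lower. Impact on chromosome 18 had 6 windows with 22.4, 13.7 and 19.3 RPKM in WT and 0.747, 0.355 and 0.353 RPKM in Tet2 KO. In these and in Slc38a4, 7 loci in all, the mean of the KO libraries was below 1 RPKM.

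At the other imprinted loci the mean of the KO libraries was above 1 RPKM. Gnas (chromosome 2, 174284320 to 174346744, plus strand), which encodes the stimulatory G-protein subunit, had 28 windows from 174296201 to 174301000, the most of any imprinted locus. They gave 26.7, 25.3 and 25.1 RPKM in WT and 4.24, 4.44 and 4.31 RPKM in Tet2 KO. This was a log2 fold change of -2.54. Mest (chromosome 6, 30723547 to 30748465, plus strand) had 21 windows with 42.5, 35.2 and 38.1 RPKM in WT and 6.14, 5.25 and 5.14 RPKM in Tet2 KO. Nnat, in an intron of Blcap, fell from 28.2 ± 0.198 to 1.55 ± 0.0841 RPKM over 9 windows, Plagl1 from 26.7 ± 6.08 to 2.15 ± 0.439 RPKM over 10 windows and Inpp5f from 17.8 ± 5.70 to 1.12 ± 0.427 RPKM over 11 windows (SD, n = 2 each). Every KO library was at the floor in 3, 5 and 8 of these windows, in that order. The paternally methylated locus with a window was Rasgrf1. Its 8 windows from 89879601 to 89881200 on chromosome 9, upstream of the gene that starts at 89909908, gave 28.7, 26.7 and 25.2 RPKM in WT and 2.94, 4.00 and 5.55 RPKM in Tet2 KO.

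The smallest decreases were at Mcts2, Airn and Peg13, with 2, 1 and 1 windows and log2 fold changes of -1.94, -1.58 and -1.27. With TMM factors 4 of the 186 windows took the other sign, namely the single windows of Airn and Peg13, 1 of the 2 of Mcts2 and 1 of the 8 of Rasgrf1. The maternally methylated loci Kcnq1ot1 and Snrpn and the paternally methylated loci H19, Meg3 and Zdbf2 had no listed window, which does not show that they were unchanged. Every KO library was at the floor in 113 of the 186 windows (60.8%), beside 31.3% of all lower windows. With such windows set at their bound, the median log2 fold change was -2.77 over the 186 windows and -2.31 over all lower windows. Of these 186 windows 152 lay within 1 kb of a transcription start, and their median was 6 CpG sites.

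**Figure D2:**
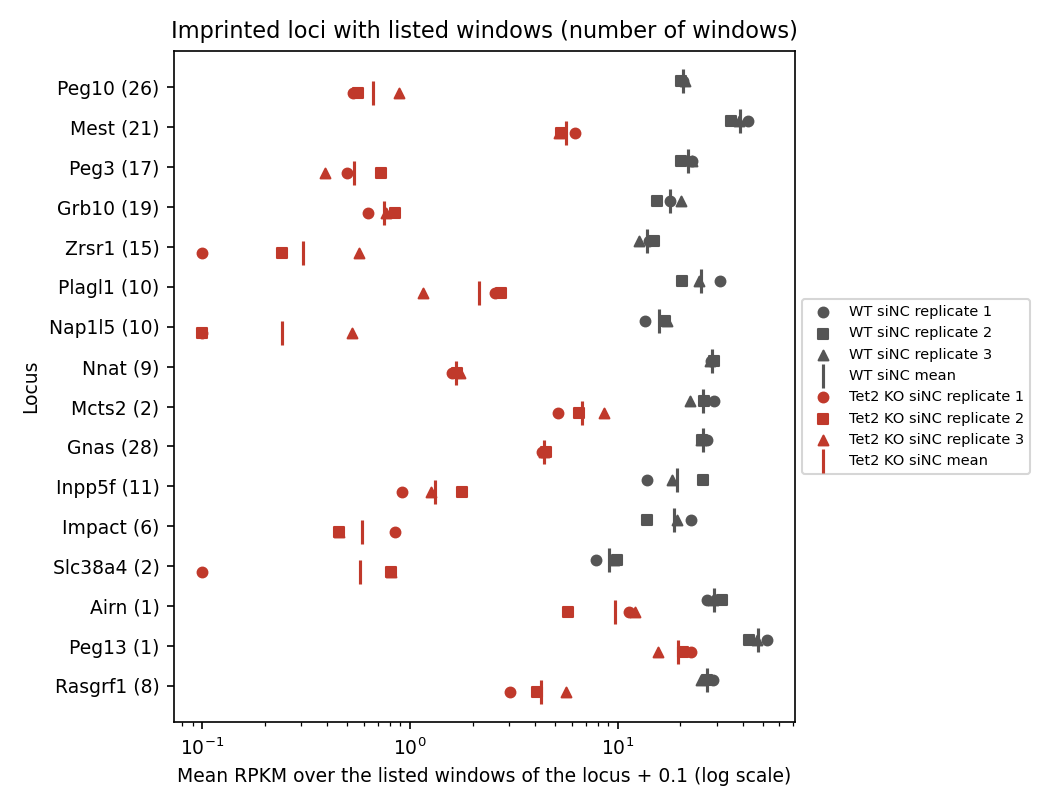
Mean RPKM plus 0.1 over the listed windows of each imprinted locus (x axis, log scale), with 1 symbol per library and a vertical bar for the mean of 3 libraries. WT libraries (grey) sit to the right of KO libraries (red) at all 16 loci, from below 1 RPKM in Tet2 KO at Peg10 or Zrsr1 to 19.5 RPKM at Peg13.

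The clustered protocadherins, cell-surface proteins that give neurons their identity, followed the imprinted genes in the share of genes with a listed window. Of 56 genes, 20 (35.7%) held a lower window and 0 a higher one, but the genes of a cluster overlap and share windows. In the alpha cluster 34 windows, 18 of them in exons and 16 within 1 kb of a start, gave 46.0, 37.7 and 42.7 RPKM in WT and 10.3, 10.7 and 9.73 RPKM in Tet2 KO, and 7 of the 34 took the other sign with TMM factors. In the gamma cluster 8 exonic windows gave 33.3, 29.3 and 27.0 RPKM in WT and 3.22, 3.73 and 4.50 RPKM in Tet2 KO. The beta cluster between them had no listed window.

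Zinc-finger genes of the Zfp, Zscan and related families held lower windows in 16 of 411 genes (3.89%) and higher windows in 5 (1.22%), near the shares of all genes. Zfp777 had 11 single-copy exonic windows on chromosome 6 that gave 39.3, 33.4 and 33.3 RPKM in WT and 1.12, 0.839 and 0.449 RPKM in Tet2 KO. Zfp787 had 13 exonic windows on chromosome 7 with 49.8, 50.2 and 51.1 RPKM in WT and 4.74, 3.01 and 6.13 RPKM in Tet2 KO. At Zfp981 and Zfp986, where most windows had more than 1 copy, the log2 fold changes of -1.10 and -1.50 turned positive with TMM factors.

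Among regulators of DNA methylation, 2 of 26 genes held a window, Tet2 and Dnmt1. Dnmt1 (chromosome 9, 20907209 to 20959888, minus strand), the maintenance methyltransferase, had 1 window from 20909501 to 20909600, near the 3' end of the gene. It lay within 1 kb of an annotated transcript start but not of the outermost start of Dnmt1. This window gave 55.5, 46.7 and 50.8 RPKM in WT and 26.9, 22.8 and 20.5 RPKM in Tet2 KO. Its log2 fold change of -1.12 turned positive with TMM factors. None of the 22 genes of the TET2 RNA pathway (Pspc1 and Nsun2 among them), 39 Hox genes, 34 MHC genes and 18 housekeeping genes held a window in either direction, beside 3.18% (lower) and 1.33% (higher) of all genes, which in lists of this length is a gene or so. In the list of 27 pluripotency genes, 2 held higher windows and 0 lower ones. Zfp42, which encodes the stem-cell marker REX1, had 4 exonic windows with 5.85, 8.47 and 3.91 RPKM in WT and 27.2, 27.9 and 21.9 RPKM in Tet2 KO. Prdm14, a repressor that keeps methylation low in naive cells, had 3 exonic windows with 2.60, 1.76 and 2.60 RPKM in WT and 15.3, 17.8 and 18.1 RPKM in Tet2 KO. In both genes the highest WT library stayed below the lowest KO library.

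The next lists held few windows, and their shares are to be read against the 3.18% (lower) and 1.33% (higher) of all genes. Germline genes that are methylated in somatic cells held lower windows in 2 of 47 cases (4.26%). Ddx4, the germ-cell RNA helicase, had 7 windows, 6 of them intronic, with 15.7, 20.6 and 20.1 RPKM in WT and 2.88, 2.64 and 3.23 RPKM in Tet2 KO. Sycp3, a protein of the synaptonemal complex, had 3 windows near its start with 58.1, 60.7 and 59.3 RPKM in WT and 25.8, 23.2 and 33.9 RPKM in Tet2 KO. The Sycp3 windows took the other sign with TMM factors. Of 34 genes of the 2-cell stage, 1 (2.94%) held a window. It was Duxf3, a copy of the Dux homeobox array, with 246 ± 17.7 RPKM in WT and 137 ± 5.57 RPKM in Tet2 KO, where 10 of 10 windows took the other sign with TMM factors. Among 87 Polycomb-regulated developmental genes, 1 held only higher windows (Pax2), 2 only lower windows (Irx1 and Gata4) and 1 both (Bmp7), which is 2.3% with a higher and 3.45% with a lower window. Pax2, a kidney and eye transcription factor, had WT libraries at the floor and was at least 4.57-fold higher over 2 intronic windows, at 11.2 ± 3.25 RPKM in Tet2 KO, and Irx1 fell from 17 ± 0.39 to 3.10 ± 0.372 RPKM over 4 exonic windows (SD, n = 2 each). Of 30 regulators of blood formation, the tissue in which TET2 is often mutated, Erg and Etv6 held lower windows (6.67%), the former in windows with a median of 3041 copies. With TMM factors 2 of the 10 windows of Erg, 2 of the 4 of Etv6 and 2 of the 3 lower windows of Bmp7 took the other sign.

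Among larger gene families the shares lay on both sides of that of all genes. Lower windows were present in 5 of 325 vomeronasal receptors (1.54%), 5 of 1086 olfactory receptors (0.46%), 1 of 100 cytochrome P450 genes (1%) and 1 of 16 genes of the Ifi200 and Sp100 families. With TMM factors the windows of Vmn2r11 (4 of 4), Vmn2r35 (1 of 1) and Olfr617 (2 of 2) took the other sign. Lower windows were present in 6.75% of 163 ion channel genes, with higher windows in 2.45%, and in 9.62% of 52 genes for cadherins and related adhesion proteins, with higher windows in 1.92%. At the adhesion genes Cdh20, Cntn4, Ctnna2 and Cdh26 all lower windows were intronic. They had medians of 2378, 134, 331 and 494 reference copies, and 0 of them had a single copy. These shares were not adjusted for gene length. At Kcnb2, a potassium channel, 5 single-copy intronic windows gave 17.9, 17 and 19.7 RPKM in WT and 0, 0 and 0.426 RPKM in Tet2 KO, at least 7.17-fold lower. The list of 69 histone genes held 1 gene with a lower window, but that gene was H13, a signal peptide peptidase matched by its symbol, whose 2 windows are those of Mcts2.

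**Figure D3:**
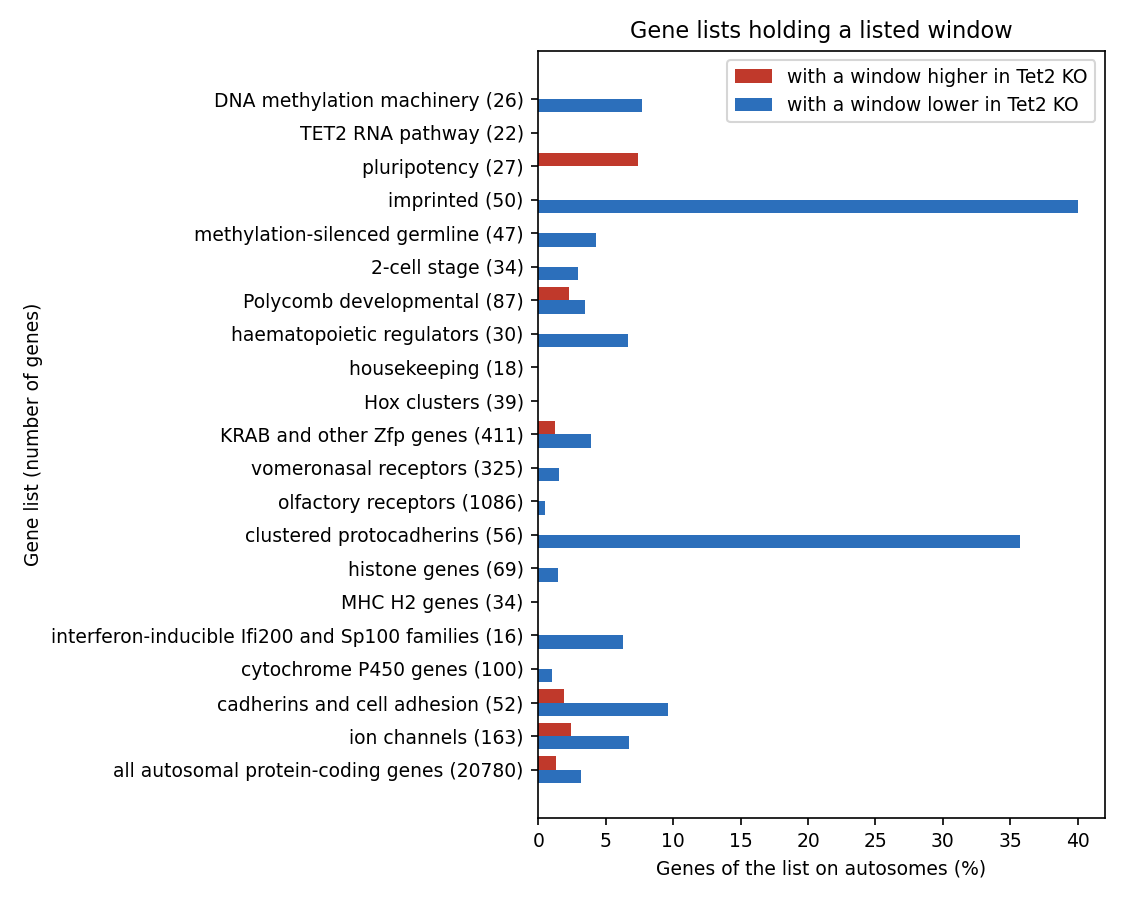
Share of the genes of each list on the autosomes (x axis, %) that held at least 1 window higher (red) or lower (blue) in Tet2 KO, with the number of genes in brackets. Imprinted genes (40% lower) and clustered protocadherins (35.7% lower) stand above all autosomal protein-coding genes (3.18% lower and 1.33% higher), and 7.41% of the pluripotency genes held a higher window.

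Outside imprinted loci, the named lower region near a start with the largest decrease was at Mt1 (chromosome 8, 94179082 to 94180327, plus strand), a metallothionein that binds zinc and copper. The ranking covered single-copy regions of at least 3 windows near a protein-coding start, with symbols of the Gm and Rik type passed over. Its 6 windows from 94179701 to 94180300 gave 58.3, 53.1 and 57 RPKM in WT and 0.560, 1.66 and 1.41 RPKM in Tet2 KO. Single-copy lower windows were most frequent in Dhx29 (chromosome 13, 112927454 to 112969432, plus strand), an RNA helicase of translation initiation. Its 41 windows, 26 of them in introns and 10 in exons, gave 26, 27.3 and 27.1 RPKM in WT and 4.43, 5.04 and 5.90 RPKM in Tet2 KO, and 5 of them took the other sign with TMM factors. Naip1 (chromosome 13, 100407764 to 100452869, minus strand), a sensor of the inflammasome, had 22 windows with 54.6 ± 2.69 RPKM in WT and 13.1 ± 0.439 RPKM in Tet2 KO (SD, n = 2 each). BC067074 on the same chromosome had 21 windows with 33.9 ± 0.591 and 8.24 ± 1.09 RPKM (SD, n = 2 each). Of these, 6 at Naip1 and 8 at BC067074 took the other sign with TMM factors.

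The named higher regions near starts, chosen for the largest increase, had little signal in WT (plot of higher genes), whereas 75 of the 327 higher windows near starts belonged to the very strong set described above. The windows printed here are the deepest single-copy ones of a region at 5 genes with higher signal, touch no annotated UTR, and are shown for their range from 2 to 9 CpG sites (GRCm38, plus strand, CpG in capitals).
Catsperg1 chr7:29213101-29213200: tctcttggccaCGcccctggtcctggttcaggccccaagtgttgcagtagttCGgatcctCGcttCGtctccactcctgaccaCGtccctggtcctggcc
Jak3 chr8:71686901-71687000: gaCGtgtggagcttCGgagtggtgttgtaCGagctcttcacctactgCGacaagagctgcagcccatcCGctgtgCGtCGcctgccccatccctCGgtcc
Zfhx3 chr8:108948501-108948600: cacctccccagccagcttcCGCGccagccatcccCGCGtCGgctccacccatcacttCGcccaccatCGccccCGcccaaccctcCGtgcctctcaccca
Fto chr8:91351001-91351100: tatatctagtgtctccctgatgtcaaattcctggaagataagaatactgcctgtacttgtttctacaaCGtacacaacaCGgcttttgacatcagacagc
Baalc chr15:38933601-38933700: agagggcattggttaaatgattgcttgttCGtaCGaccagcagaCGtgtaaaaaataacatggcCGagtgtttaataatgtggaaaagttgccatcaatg
Reads in the WT libraries and then the KO libraries were 4, 8, 15 and 75, 119, 131 for Catsperg1, and 14, 16, 24 and 56, 103, 73 for Jak3. For Zfhx3 they were 73, 74, 102 and 89, 169, 138, the only one of these windows where read numbers overlapped before division by library size, and its RPKM values did not (63.3, 55.7 and 66.4 compared with 99.8, 120 and 97.4). For Fto they were 4, 2, 12 and 30, 68, 72, and for Baalc 1, 1, 0 and 22, 35, 34.

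Catsperg1 (chromosome 7, 29181321 to 29214035, minus strand) encodes a subunit of the sperm calcium channel. A run of 30 adjacent higher windows, the longest of that direction, ran from 29210801 to 29213800 near its start, and 17 single-copy windows within the gene or 1 kb upstream gave 1.68, 2.13 and 1.53 RPKM in WT and 40.6, 42.3 and 42.4 RPKM in Tet2 KO. Fto (chromosome 8, 91313525 to 91668439, plus strand), an RNA demethylase that removes m6A, held 18 single-copy windows, all intronic, that gave 2.22, 1.76 and 2.64 RPKM in WT and 17.2, 22.5 and 20.6 RPKM in Tet2 KO. Jak3 (chromosome 8, 71676296 to 71690575, plus strand), a kinase of cytokine receptors, held 14 windows with 6.26, 4.41 and 5.95 RPKM in WT and 29.9, 32.3 and 26.9 RPKM in Tet2 KO. Zfhx3, a large homeobox transcription factor, held 11 windows with 18.4 ± 0.309 and 44.6 ± 2.36 RPKM, and Arid5b, a DNA-binding protein, 9 windows in its UTR with 6.51 ± 0.484 and 28.0 ± 2.43 RPKM (SD, n = 2 each). None of these 5 genes held a single-copy lower window.

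By the same ranking, the 6 higher regions near a start with the largest increase lay at Rgcc, Fv1 with Miip, Zfp790, H2afj, Baalc and Ipmk, all single-copy regions of at least 3 windows. At Rgcc, a regulator of the cell cycle, 4 windows on chromosome 14 from 79300501 to 79300900 held 0 reads in all WT libraries and 38, 47 and 39 reads in the KO libraries, so the signal was at least 3.8-fold higher. At the retroviral restriction gene Fv1 (chromosome 4, 147868801 to 147869100), WT libraries also held 0 reads and KO libraries 19, 42 and 37, at least 3.78-fold higher. H2afj, which encodes a variant of histone H2A, had 8 windows upstream of its start with 0, 0.188 and 0.569 RPKM in WT and 11.3, 15.1 and 16.5 RPKM in Tet2 KO. Baalc had 4 windows with 0.867, 0.942 and 0 RPKM in WT and 20.7, 21.0 and 18.7 RPKM in Tet2 KO. Zfp790 and Ipmk, an inositol polyphosphate kinase, were at least 5.01-fold and 4.22-fold higher.

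**Figure D4:**
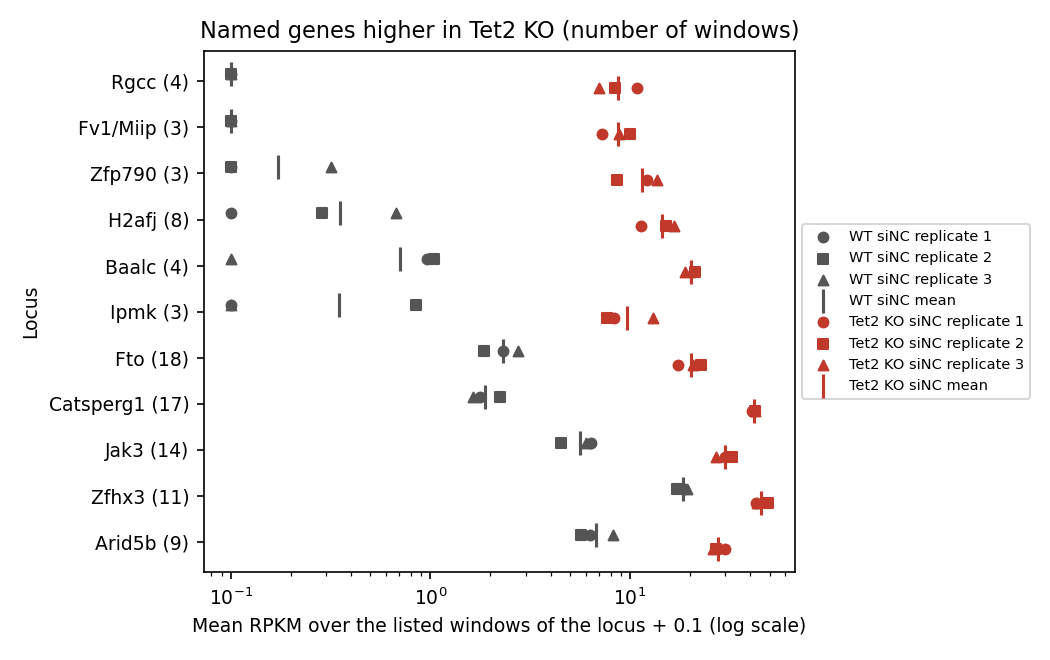
Mean RPKM plus 0.1 over the higher windows of the named regions near starts (the upper 6 rows) and of the genes with the most single-copy higher windows (the lower 5 rows), on a log scale, with 1 symbol per library and a vertical bar for the mean of 3. WT libraries (grey) lie at or near 0.1 for Rgcc and Fv1/Miip, where they held 0 reads, and KO libraries (red) lie to the right of WT in every row.

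The autosomes carried unequal numbers of windows. Lower windows ranged from 1.19 per Mb on chromosome 11 to 9.62 on chromosome 1, followed by 9.09 on chromosome 12, 7.22 on chromosome 13 and 6.85 on chromosome 17. Higher windows ranged from 0.169 per Mb on chromosome 3 to 2.46 on chromosome 6 and 2.43 on chromosome 8. Chromosomes 11 and 15 were the only autosomes with more higher than lower windows, 231 compared with 145 and 227 compared with 127.

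**Figure D5:**
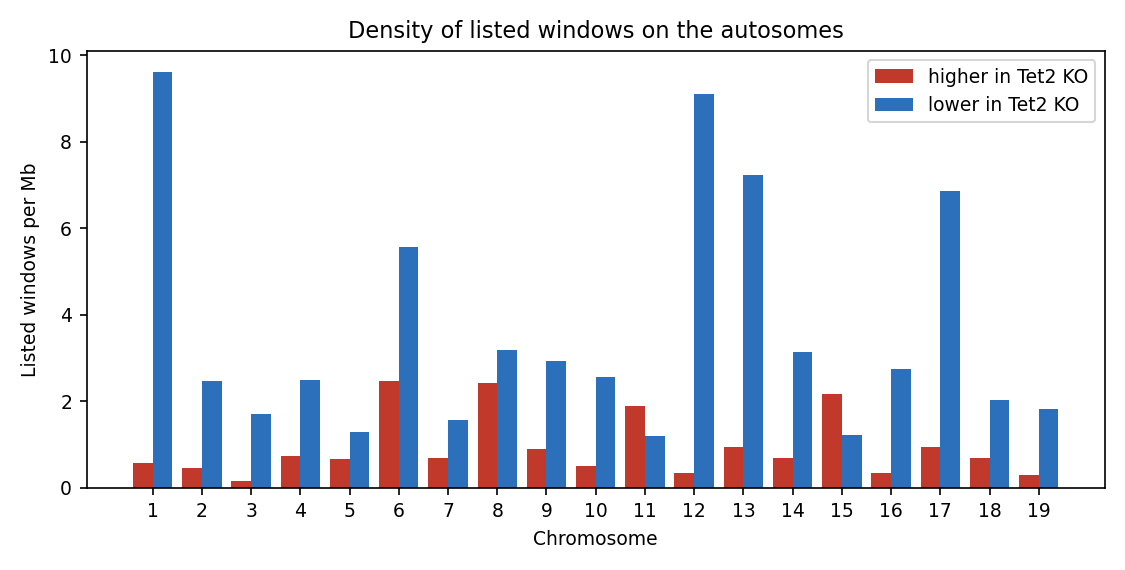
Listed windows per Mb (y axis) higher (red) or lower (blue) in Tet2 KO on each of the 19 autosomes (x axis). Lower windows peak on chromosomes 1, 12 and 13, and the higher windows exceed the lower ones on chromosomes 11 and 15.

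Within chromosomes the lower windows were clustered. Of 2473 bins of 1 Mb, 1099 held a lower window, and 48 bins with at least 30 each held 34.8% of them. Higher windows lay in 400 bins, 8 of which held at least 30 windows. The bin with the most lower windows, 234, was on chromosome 6 from 114497001 to 114629600, outside genes and with a median of 51 copies. It gave 64.0, 55.7 and 55.5 RPKM in WT and 18.9, 18 and 17.3 RPKM in Tet2 KO. A bin on chromosome 8 from 123538001 to 123623000 held 207 windows, none with a single copy. In both bins most windows (167 and 139) took the other sign with TMM factors.

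The 3 runs of consecutive bins with at least 30 lower windows each that held the most of them were on chromosomes 12, 13 and 1, a rule set after the values were seen. From 17 to 25 Mb on chromosome 12, 690 windows were lower and 18 higher, and every KO library was at the floor in 62% of the lower ones. There 22.8% had 1 copy. From 112 to 115 Mb on chromosome 13, 406 windows were lower and 5 higher, 83.7% of the lower ones had 1 copy, and KO libraries were at the floor in 7.39%. Single-copy means there were 36.9, 38.3 and 39.5 RPKM in WT and 8.24, 8.77 and 9.10 RPKM in Tet2 KO, so that 22.8% of the WT signal was retained, beside 28% over all single-copy lower windows. Genes in these bins included Dhx29, Ddx4, Il6st, the receptor subunit shared by interleukin-6 cytokines, and Gzmk, a granzyme. From 170 to 173 Mb on chromosome 1, 279 windows were lower and 10 higher, KO libraries were at the floor in 57% and single-copy windows retained 8.95%. These included a bin of 152 lower windows with windows in Fcgr3, Itln1, Cd244a and Cd84, all genes of immune or gut cells. With TMM factors 78, 104 and 19 lower windows of these runs on chromosomes 12, 13 and 1 took the other sign.

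Of the 5 bins with the most higher windows, those on chromosome 9 and on an unplaced contig held 74 and 51 windows with a small difference. On chromosome 9 from 3000001 to 3037700 the signal was 8304, 8910 and 8496 RPKM in WT and 10351, 10302 and 10195 RPKM in Tet2 KO. The other 3 bins held larger differences. On chromosome 8 from 91117201 to 91935300, 47 windows in Rbl2, Aktip and Fto or near them gave 1.79, 1.41 and 1.88 RPKM in WT and 17.6, 21.2 and 19.7 RPKM in Tet2 KO, and this bin held no lower window. On chromosome 6 from 47657701 to 47854900, 57 windows with a median of 15 copies gave 15.5, 16.4 and 17 RPKM in WT and 56.7, 63.0 and 65.0 RPKM in Tet2 KO, and 20 lower windows lay in the same bin. On chromosome 7, 46 windows in 3 regions gave 14.3, 13 and 13.2 RPKM in WT and 54.0, 56.8 and 54.9 RPKM in Tet2 KO, and 3 lower windows lay in the same bin.

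Repeat families were traced through the study's own primer pairs, matched without mismatch to the reference, because no repeat annotation was used. For primers designed on bisulfite-converted sequence, C was read as T in the primers and in the reference. A locus was the amplified product with 500 bp on each side. For the amplicon of L1MdA, a young LINE-1 subfamily, 173 of 2616 loci (6.61%) held a lower window and 0 a higher one, beside 0.136% and 0.0363% of all bins of 1 kb on the autosomes. Its 234 lower windows had medians of 23.4, 20.3 and 21.2 RPKM in WT and 4.48, 4.26 and 4.23 RPKM in Tet2 KO. Without the extension the count was 0, so no lower window touched the amplified product itself. The 7 primer pairs for IAP elements differed. For the first IAPEz amplicon, 73 of 1023 loci (7.14%) held a lower window and 17 (1.66%) a higher one, and for the second 9 of 274 (3.28%) and 0. The 5 other IAP pairs lay lower, with lower windows at 3.05%, 2.02%, 1.44%, 0.446% and 0.166% of their loci. The lower windows of the first amplicon had medians of 36.4, 32.4 and 33.9 RPKM in WT and 10.1, 10.3 and 9.88 RPKM in Tet2 KO, and the higher ones 11.3, 9.03 and 8.47 and then 31.4, 31.3 and 29.6 RPKM. RLTR10, a family of retroviral long terminal repeats, held lower windows at 40 of 674 loci (5.93%) and higher windows at 26 (3.86%). The 2 ETn amplicons shared their 9 higher windows, which lay at 4 of 70 loci (5.71%) of ETnERV-int and 4 of 224 (1.79%) of MMETn-int, and the related MusD elements lower windows at 5 of 67. With TMM factors 99 of the 196 lower windows of the first IAPEz amplicon took the other sign, as did 12 of 19 of the second. For the other IAP pairs, in the order of their shares, these were 16 of 29, 15 of 26, 9 of 18, 0 of 16 and 0 of 7, so at 5 of the 7 pairs the direction of at least 50% of the lower windows rests on the scaling. They were 78 of 188 for RLTR10, 54 of 234 for L1MdA and 4 of 15 for MusD.

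Other families held few listed windows, and their shares are to be read against the 0.136% (lower) and 0.0363% (higher) of all bins of 1 kb. MERVL, expressed in the 2-cell embryo, had none at 584 qPCR loci or at 184 and 516 amplicon loci, and L1MdGf had none at 1201 loci. At such numbers of loci the share of all bins is a locus or so. L1MdTf had lower windows at 1 of 1753 (0.057%) and 2 of 1676 loci (0.119%), and B1 at 1 of 1401 (0.0714%). B2_Mm1t had lower windows at 11 of 5394 loci (0.204%) and higher windows at 7 (0.13%), and 3 of its 31 lower windows took the other sign with TMM factors. The aligner reported 1 best position for a read with several, so a window at such a locus need not mark the copy that changed.

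Regions of adjacent windows numbered 885 higher and 3120 lower, with a median of 2 windows in both directions. On annotated sequence, soft-masked bases made up 50% or more of 48.1% of 849 higher and 72.9% of 3115 lower regions, and among single-copy regions in 13.8% and 27.3%, beside 29.5% of all autosomal windows. Within 1 kb of a transcription start lay 13.8% of higher regions (95% Clopper-Pearson interval 11.5 to 16.3) and 8.48% of lower regions (7.52 to 9.51), intervals that cover counting error only. Among single-copy regions these shares were 14.9% and 12.6%, and among single-copy windows 16.4% and 16.5%. A region counted if any of its windows lay near a start. The share of all autosomal windows, 6.55%, is counted by windows and is set beside 14.2% of higher and 10.1% of lower windows. Single-copy higher windows numbered 968 with a median log2 fold change of 3.08, and single-copy lower windows 2733 with -2.76. The relative methylation score, which MEDIPS corrects for CpG density, had the direction of the RPKM at 2300 of 2375 higher windows and at 9216 of 9216 lower windows. It is computed from the same reads, and a window has the same reference CpG density in both genotypes, so this is no independent support. In the very strong set of 167 higher windows it had that direction at 92, with a median score of 0.96 in both genotypes.

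Some windows were also listed in other comparisons of the series, and both siNsun2 comparisons used siNC libraries of the present one. Among those shared with the Pspc1 comparison, 160 were lower and 11 higher in Tet2 KO, where 79.5% of all windows were lower. At the 160, the WT cells of that experiment had a median of 130 RPKM in the IP libraries and 3.01 RPKM in input, and at the 11 these were 55.6 and 2.4 RPKM. The 22 windows shared with siNsun2 in WT, which rest on the same WT siNC libraries, had medians of 3594 RPKM in KO siNC, 2703 RPKM in WT siNC and 3026 RPKM in WT siNsun2. At the 31 higher and 10 lower windows shared with siNsun2 in Tet2 KO, KO cells with siNsun2 had medians of 135 and 153 RPKM, compared with 212 and 254 RPKM in KO siNC and 125 and 414 RPKM in WT siNC. Windows shared with a siNsun2 comparison were listed in both for differing from the same siNC libraries. That this siNC group differed from both other groups was therefore fixed by the selection, and no effect of siNsun2 is read from these medians.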

How the data were processed

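MeDIP-seq libraries of 3 Tet2-KO and 3 WT samples with siNC were compared. The authors trimmed reads (Trimmomatic 0.39), aligned them to mm10 (Bowtie2 2.4.1), removed duplicates with Picard and tested 100 bp windows with MEDIPS and edgeR. The deposited tables hold only windows under an adjusted p-value of 0.1. The deposited counts are raw reads per window. The RPKM values were scaled by the authors to window length and library size, and the deposited relative methylation score is a fraction from 0 to 1. The authors' fold changes and p-values were not used.

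Library totals were recovered from count and RPKM. Direction came from the mean RPKM of the 3 libraries of each side. Log2 fold changes are of these means with a pseudocount of 0.1. Counts up to 3 were the floor, and folds against a group at the floor are bounds. The quasi-likelihood test of edgeR 4.0.16 was run on all 14279 rows with these totals and Benjamini-Hochberg adjustment at 0.05 (DESeq2 1.42.0 as an alternative). In data simulated for this comparison (14279 windows, 200 changed 4-fold), the refit called 175 (87.5%) with 7 false calls and DESeq2 142 (71%) with 0.

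Sequence and copy number (exact matches of the middle 32 bases) came from GRCm38, the same build as mm10, and genes from the GENCODE annotation of that build. Of the windows, 84 lay on unplaced contigs and were not annotated. Regions are runs of adjacent windows of 1 direction. Named were Tet2, and for each direction the 6 regions of at least 3 windows near a protein-coding start with the largest change and a median of 1 copy, the 5 genes with most single-copy windows, the 5 bins of 1 Mb with most windows, and up to 4 members of each gene list. Symbols of the Gm and Rik type were passed over. Members and lists were chosen with earlier results of these data known. Alternatives were other scalings, tools, filters, pseudocounts, libraries left out, a replicate block, single-copy windows and other region or locus definitions.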

Additional observations from a re-analysis of the deposited data

How the results depend on the processing

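The counts of 2375 higher and 9216 lower windows were the same without each library in turn and with DESeq2 on the recovered totals. They were also the same with replicates 2 and 3 summed and with the replicate number as a replicate block (2375 and 9216). Same-numbered libraries did not deviate together (correlations of deviations 0.07, 0.01 and 0.01) and share no more than a number. Each of these refits called all 11591 windows, which the authors had listed for differing between these same libraries. The counts were thus at their upper limit in a list chosen on these libraries. They cannot tell how far the calls depend on a single library or on the tool. A minimum of 50 reads gave 2032 and 8405, the 19 autosomes 2304 and 9202, and the relative methylation score 2300 and 9222. Scaling within the list moved the balance. TMM factors gave 3466 higher and 3778 lower windows and DESeq2's own size factors 3205 and 2862, since both centre a list that is mostly lower on itself. Windows with 1 reference copy numbered 968 and 2733, a smaller set by construction.

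The median log2 fold changes of 2.27 and -2.60 were 2.29 and -2.63 with a pseudocount of 0.01, 2.08 and -2.32 with 1, 4.15 and -0.72 with TMM factors, 2.02 and -2.48 with at least 50 reads, 3.08 and -2.76 with 1 copy, and 2.06 and -2.31 with floor windows at their bound. Leaving out 1 library gave 2.26 to 2.29 and -2.62 to -2.54. Regions numbered 771 and 2760 when merged over 200 bp.

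The soft-masked share of 48.1% (higher) and 72.9% (lower) became 13.8% and 27.3% in single-copy regions and 53% and 70.5% counted by windows. The share of regions near a start, 13.8% (higher) and 8.48% (lower), became 14.9% and 12.6% in single-copy regions and 14.2% and 10.1% counted by windows. Median CpG per window, 3.22 and 4.67, became 3 and 3 in single-copy regions and 3 and 5 by windows. Primer loci with a listed window numbered 438 and, with no extension, 125, a narrower locus by construction. For the moves of the medians and shares, the cause was not tested where the setting did not remove windows or regions. A window held few reads at this depth, so that a KO signal of up to 3 reads per library was at the floor of detection.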
